A study of Mus musculus with 12 samples.

Results

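The 6 genes Zfp36, Zfp36l1, Zfp36l2, Zc3h12a, Rc3h1 and Rc3h2, which control the decay of cytokine mRNA, were followed across insulin-reactive CD4 T cells taken from the islets and the spleen of the same mice. They are among the 24383 genes of the deposited expression matrix, found by matching its RefSeq identifiers to these symbols and summing transcripts per gene. Zfp36 is NM_011756, Zfp36l1 is NM_007564, Zfp36l2 is NM_001001806, Zc3h12a is NM_153159, Rc3h1 is NM_001024952, and Rc3h2 has 2 listed transcripts, NM_001100591 and NM_001290642. In RefSeq on GRCm38.p6 the genes lie at chr7:28376784-28379228 (Zfp36), chr12:80107760-80113013 (Zfp36l1), chr17:84183924-84187947 (Zfp36l2), chr4:125118414-125127881 (Zc3h12a), chr1:160906411-160974976 (Rc3h1) and chr2:37368861-37424370 (Rc3h2). Values are FPKM, fragments scaled to transcript length and to the mapped fragments of the library, so that levels of different genes can be set side by side.

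Donors of WT origin cells were female NOD mice, a strain that develops autoimmune diabetes, and donors of Y16A origin cells were female NOD.InsY16A Tg mice, which carry a mutated insulin transgene whose promoter the labels do not give. Per the labels, donors were 6 to 8 weeks old and were immunised with insulin C19A, and their splenocytes were cultured for 2 weeks with 10 µM of the insulin peptide B9-23. Purified CD4 cells, over 95% pure and under 1% Foxp3+, went into female NOD.scid recipients of 8 to 10 weeks (5 M cells a mouse), which lack T and B cells of their own but keep myeloid and pancreatic cells. Each of 6 recipients, 3 per origin, gave 1 islet and 1 spleen library, so there were 4 groups of 3 libraries, named here by tissue, origin and mouse number. All groups share immunisation, expansion and transfer, and no sort of the cells taken back from the recipients is named. The sample titles and the design text were used for the groups, because the genotype entry of the labels gives NOD for every islet library and NOD.Y16A for every spleen library. The islet libraries are titled as pancreas.

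The proteins encoded by these genes shorten the life of mRNAs that T cells switch on after antigen contact. Zfp36 (tristetraprolin) and its relatives Zfp36l1 and Zfp36l2 are zinc finger proteins that bind AU-rich elements in 3′ UTRs and bring the CCR4-NOT deadenylase. Zc3h12a (Regnase-1) is an endonuclease, and Rc3h1 and Rc3h2 (Roquin-1 and Roquin-2) bind stem-loops, in mRNAs such as those of Icos, Tnfrsf4 and Nfkbid. In T cells the protease Malt1 cleaves Zc3h12a and the Roquins after receptor engagement, and the kinase Mapkapk2 holds back Zfp36.

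The AU-rich sites of the family and of its targets are shown first, because all later comparisons set these genes side by side. The searched core was TATTTAT, on the transcript strand, counted with overlaps in the longest 3′ UTR that GENCODE M21 gives a gene. It occurs in 25.8% of 19023 such UTRs, and the longer form TTATTTATT occurs in 6.80%. The windows of 30 bases with the most matches follow on GRCm38, 5′ to 3′, with the core in capitals. The Zfp36 window lies at chr7:28376958-28376987, Zfp36l1 at chr12:80108422-80108451, Zfp36l2 at chr17:84184914-84184943, Tnf at chr17:35199677-35199706, Il2 at chr3:37120905-37120934 and Dusp1 at chr17:26506159-26506188, all on the minus strand. The Ifng window lies at chr10:118445332-118445361 and Fos at chr12:85477102-85477131, on the plus strand.
Zfp36: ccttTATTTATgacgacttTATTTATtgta
Zfp36l1: cttatcaaaacgTATTTATtgccaaactat
Zfp36l2: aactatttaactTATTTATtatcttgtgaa
Ifng: ccTATTTATtaatatttaaaacTATTTATa
Tnf: TATTTATTATTTATTTATTATTTATTTATt
Il2: taaacTATTTATctgaaatTATTTATtata
Fos: gtgttttcaattTATTTATtaagatggatt
Dusp1: ggagctggtcctTATTTATttaacaccccc

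Each of the 3 Zfp36 family mRNAs holds the element that the family binds. Zfp36 had 3 core matches in a 3′ UTR of 774 bases, where 20.2% of UTRs of like length (0.8 to 1.25 times) have any. Zfp36l1 had 3 in 1835 bases and Zfp36l2 had 3 in 1822 bases, against 38.2% and 38.0% of UTRs of like length with any. Among the targets, Tnf had 8, Ifng 4, Il2 3, Dusp1 3, Fos 2, Rel 2 and Ccl4 1. The matches of Rel lie in 5418 bases, a length at which 66.5% of UTRs have any. For the other targets just named, 8.4% (Ccl4) to 20.9% (Fos) of UTRs of like length have any. Rc3h1 had 2 and Rc3h2 had 3 in UTRs of 7181 and 5331 bases, lengths at which 76.9% and 67.6% of UTRs have any. These letters were not found in the 3′ UTRs of Zc3h12a, Icos, Tnfrsf4, Ctla4, Nfkbid and Nfkbiz. Of the longer form TTATTTATT, Tnf had 5 matches and Dusp1 2, while Ifng and Ccl4 had 0. Zfp36, Zfp36l1, Zfp36l2, Rc3h1, Rc3h2, Il2, Fos and Rel had 1 each. A match is a description of the sequence and shows no binding.

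Upstream sequence is given for Zfp36 and Zfp36l1, while that of Zfp36l2 was not analysed here. The 250 bases before each RefSeq gene start on GRCm38.p6 are chr7:28379229-28379478 for Zfp36 and chr12:80113014-80113263 for Zfp36l1, both on the minus strand. Both strands were searched for the CArG box (bound by serum response factor), the kappa B site, the AP-1 site (TGACTCA or TGAGTCA), the CRE (TGACGTCA) and the EGR site (GCGTGGGCG or GCGGGGGCG). Capitals mark the matches.
Zfp36: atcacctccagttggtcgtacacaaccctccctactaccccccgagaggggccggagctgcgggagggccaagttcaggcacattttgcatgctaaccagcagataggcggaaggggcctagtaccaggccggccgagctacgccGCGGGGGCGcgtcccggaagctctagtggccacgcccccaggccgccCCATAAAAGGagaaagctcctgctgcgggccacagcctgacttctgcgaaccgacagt
Zfp36l1: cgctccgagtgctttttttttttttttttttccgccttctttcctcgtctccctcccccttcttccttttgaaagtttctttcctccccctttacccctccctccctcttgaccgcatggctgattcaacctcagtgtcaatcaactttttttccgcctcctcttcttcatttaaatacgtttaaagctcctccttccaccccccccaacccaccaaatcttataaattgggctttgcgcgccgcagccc

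The Zfp36 promoter holds an EGR site at -105 to -97 and a CArG box at -58 to -49, counted from the gene start, and the matches do not overlap. Among 32851 promoters of this length, 3.06% hold an EGR site and 1.47% hold a CArG box. A kappa B site occurs in 5.00%, an AP-1 site in 4.46% and a CRE in 1.55%. Zfp36l1 and Zc3h12a had no match to any searched motif in this window, and Rc3h1 had an AP-1 site at -133 to -127. For Rc3h2 the searched 250 bases, chr2:37422904-37423153, had no match but lie inside the gene span given above. The sequence before that gene start was not searched.

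The 12 libraries carried an estimated 4.62 to 9.08 M mapped fragments, read from the steps of low FPKM values, and listed 7456 to 8676 genes at 1 FPKM or more. T cell markers were high in every library: the summed level of 7 markers was 2200 to 3474 FPKM in islet and 1607 to 2414 FPKM in spleen. The 10089 genes that reached 1 FPKM in 3 or more libraries entered limma as log2(FPKM + 1). This scale understates the change of low genes. A gene was called at a Benjamini-Hochberg adjusted p under 0.05 over all tested genes. The printed log2 changes have the median change of genes with a mean above 5 FPKM subtracted, which was 0.16 and 0.33 for islet against spleen in WT and Y16A origin, 0.25 for the mean of both, and 0.26 and 0.07 (Y16A against WT in islet and in spleen). The p-values belong to the changes before that subtraction.

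The family split into well expressed and scarce members. Over the 12 libraries the mean level was 20.1 FPKM for Zfp36, 20.2 for Zfp36l1 and 17.1 for Zfp36l2, above 84.6%, 84.7% and 82.3% of the tested genes. Mean levels of Zc3h12a (1.10 FPKM), Rc3h1 (0.573 FPKM) and Rc3h2 (0.532 FPKM) were far lower. In every group all 3 libraries of each Zfp36 family gene lay above all 3 of each scarce gene. Within each set, neighbours in the order of the means overlapped in all 4 groups. The medians of the estimated fragments per library were 339, 340 and 323 for Zfp36, Zfp36l1 and Zfp36l2, but 17, 46 and 24 for Zc3h12a, Rc3h1 and Rc3h2. The estimate for Zfp36 is likely too high, since it used a transcript of 2790 bases, longer than the gene span given above. Rc3h1 and Rc3h2 reached 1 FPKM in 1 library each and did not pass the filter, so 4 of the 6 members were tested in the main fit.

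**Figure D1:**
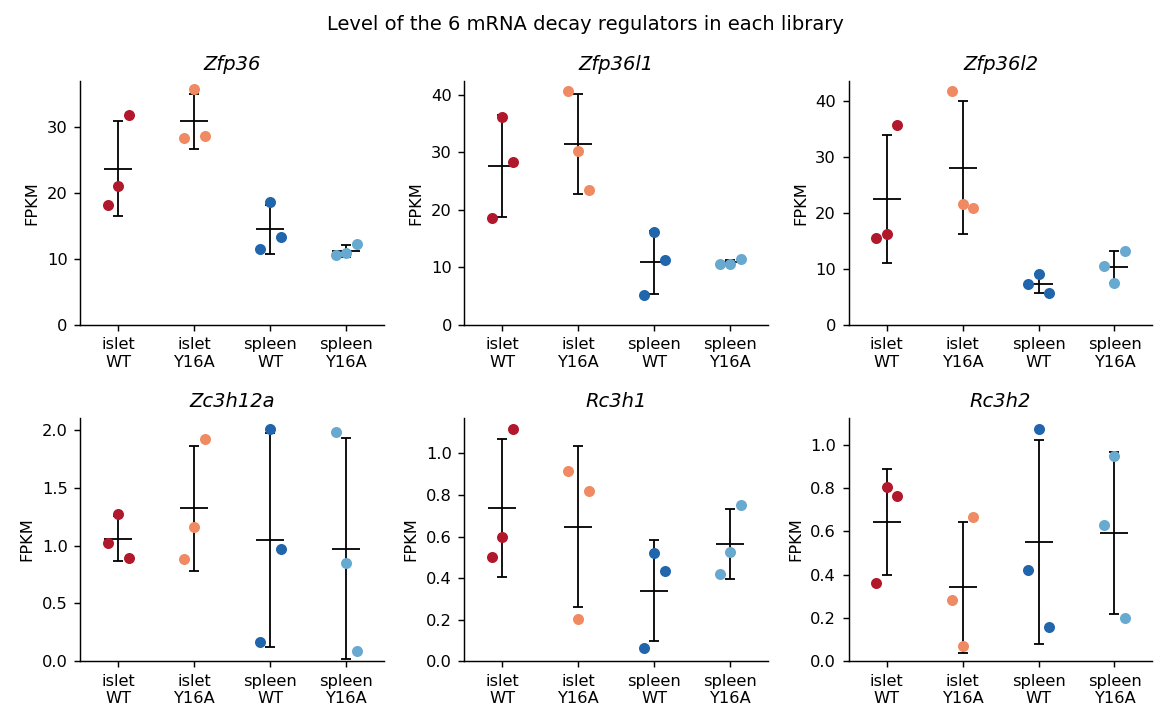
FPKM of each of the 6 genes in every library (points), with mean and SD of the 3 libraries of a group (black). Zfp36, Zfp36l1 and Zfp36l2 reach 35.8 to 41.8 FPKM in islet and at most 18.6 FPKM in spleen, while the other 3 genes stay at or below 2.00 FPKM and spread widely within groups.

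Zfp36, the founding member, had 18.2, 21.1 and 32.0 FPKM in islet WT 1 to 3 and 28.3, 35.8 and 28.7 FPKM in islet Y16A 1 to 3. In spleen it had 11.6, 18.6 and 13.3 FPKM in WT 1 to 3 and 10.6, 10.9 and 12.3 FPKM in Y16A 1 to 3. The Y16A tissues were wholly apart, while in WT origin the highest spleen library (18.6 FPKM) stood just above the lowest islet library (18.2 FPKM). The group means were 23.7 ± 7.25 FPKM in islet WT, 30.9 ± 4.21 in islet Y16A, 14.5 ± 3.69 in spleen WT and 11.3 ± 0.895 in spleen Y16A (SD, n = 3).

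Zfp36l1 had 18.5, 36.2 and 28.3 FPKM in islet WT 1 to 3 and 40.7, 30.2 and 23.4 FPKM in islet Y16A 1 to 3. In spleen it had 5.20, 16.2 and 11.2 FPKM in WT 1 to 3 and 10.5, 10.6 and 11.4 FPKM in Y16A 1 to 3. Every islet library stood above every spleen library. The group means were 27.7 ± 8.88 and 31.4 ± 8.69 FPKM in islet and 10.9 ± 5.52 and 10.8 ± 0.499 FPKM in spleen, for WT and Y16A (SD, n = 3).

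Zfp36l2 had 15.5, 16.3 and 35.7 FPKM in islet WT 1 to 3 and 41.7, 21.6 and 20.8 FPKM in islet Y16A 1 to 3. In spleen it had 7.32, 8.98 and 5.66 FPKM in WT 1 to 3 and 10.5, 7.40 and 13.1 FPKM in Y16A 1 to 3. Again the 6 islet values lay above the 6 spleen values, with islet WT 3 and islet Y16A 1 highest. The group means were 22.5 ± 11.5 and 28.1 ± 11.9 FPKM in islet and 7.32 ± 1.66 and 10.3 ± 2.85 FPKM in spleen (SD, n = 3).

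In FPKM as deposited, the difference was present in each recipient. The islet library exceeded the spleen library of the same mouse in 6 of 6 mice for all 3 genes. The ratio of FPKM, islet over spleen, was 1.13 to 3.28 for Zfp36 (median 2.37), 2.05 to 3.86 for Zfp36l1 (median 2.70) and 1.59 to 6.32 for Zfp36l2 (median 2.52). The lowest ratio of Zfp36 was in mouse WT 2, and the highest of Zfp36l2 in mouse WT 3. These ratios do not have the median change subtracted. The summed FPKM of all entries was 240426 to 342434 in islet and 163868 to 259873 in spleen libraries. In each mouse the islet library had the larger sum, and the part of these sums in the ratios was not tested.

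**Figure D2:**
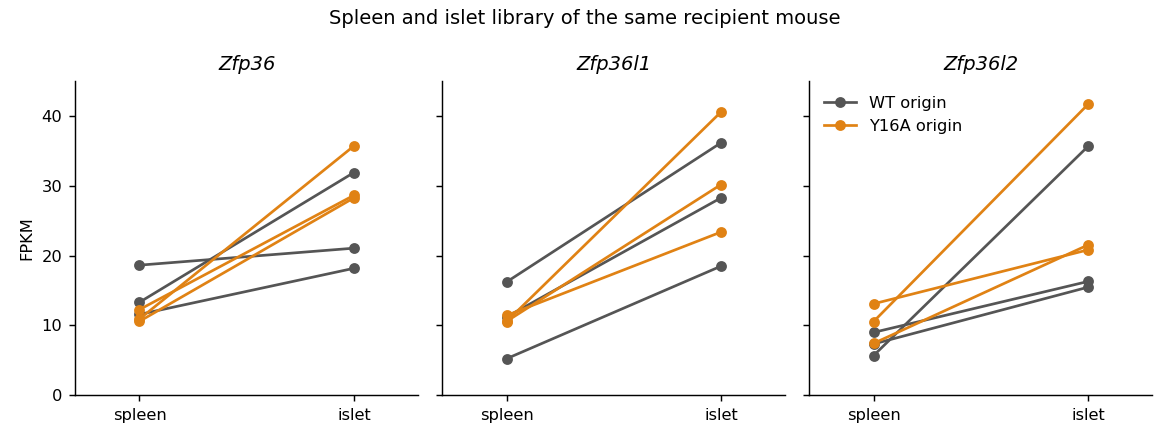
FPKM of the 3 Zfp36 family genes in spleen and islet, with a line for each recipient mouse, grey for WT origin and orange for Y16A origin. All 18 lines run upward from spleen to islet, with ratios from 1.13 to 6.32, not corrected for the larger summed FPKM of the islet libraries.

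Over both origins, all 3 Zfp36 family genes were called higher in islet. The log2 change was 0.77 for Zfp36 (SE 0.26, limma adjusted p 0.0446), 1.14 for Zfp36l1 (SE 0.30, limma adjusted p 0.0166) and 1.12 for Zfp36l2 (SE 0.31, limma adjusted p 0.0214). Zc3h12a was not called, with a log2 change of -0.03 and a 95% confidence interval of -0.76 to 0.71. Thus 3 of 4 tested members were called higher, where 1.88% of all tested genes were. Of the 4, 2 had islet and spleen values that did not overlap with islet higher, where 1.68% of all tested genes did. The calls are close to the threshold. Zfp36 kept its call in 2 of 12 fits that each left out a library, those without islet WT 1 and without spleen WT 2 (adjusted p 0.0369 to 0.128 over the 12). Zfp36l1 lost its call without islet WT 2 (adjusted p 0.0610) and without islet Y16A 1 (adjusted p 0.0575). Zfp36l2 lost it without islet WT 3 (adjusted p 0.0511), islet Y16A 1 (adjusted p 0.0744), spleen WT 3 (adjusted p 0.0548) or spleen Y16A 2 (adjusted p 0.0638). With no filter on low values none of the 3 was called (adjusted p 0.0807, 0.0523 and 0.0637).

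Within one origin no member passed. For WT origin the log2 changes were 0.51 for Zfp36 (SE 0.36, limma adjusted p 0.670), 1.19 for Zfp36l1 (SE 0.43, adjusted p 0.263) and 1.26 for Zfp36l2 (SE 0.43, adjusted p 0.237). There 0.634% of tested genes were called higher, and 2 of the 4 tested members had values that did not overlap with islet higher, where 7.51% of genes did. For Y16A origin they were 1.05 for Zfp36 (SE 0.36, limma adjusted p 0.0893), 1.09 for Zfp36l1 (SE 0.43, adjusted p 0.168) and 0.99 for Zfp36l2 (SE 0.43, adjusted p 0.232). There 0.971% of tested genes were called higher, and 3 of the 4 members did not overlap, where 14.6% of genes did not. The log2 change of Zc3h12a was -0.05 in WT and 0.00 in Y16A origin.

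No difference between the origins in the tissue change passed the test. For the interaction, 0.0% of tested genes were called by limma (0 of 10089, with 434 at an unadjusted p under 0.05). The difference of the log2 changes, Y16A minus WT, was 0.55 for Zfp36 (95% confidence interval -0.53 to 1.63), -0.09 for Zfp36l1 (-1.35 to 1.18), -0.26 for Zfp36l2 (-1.56 to 1.03) and 0.05 for Zc3h12a (-1.41 to 1.52). These intervals leave room for sizeable differences in either direction, for Zfp36 down to -0.53.

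**Figure D3:**
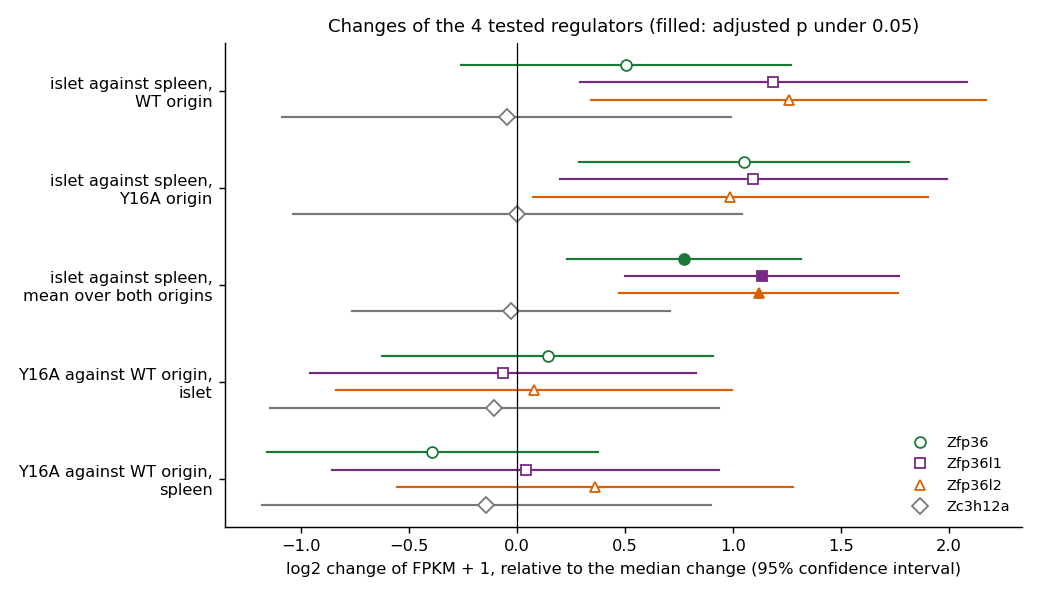
Log2 change of FPKM + 1 with its 95% confidence interval for the 4 tested genes in 5 comparisons, relative to the median change, filled where called. The 3 filled points, at 0.77, 1.14 and 1.12, are the Zfp36 family in islet against spleen over both origins, and the intervals for Y16A against WT origin all include 0.

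No member was called by the origin of the cells. In islet, Y16A against WT gave log2 changes of 0.14 for Zfp36 (95% confidence interval -0.62 to 0.91), -0.06 for Zfp36l1 (-0.96 to 0.83), 0.08 for Zfp36l2 (-0.83 to 0.99) and -0.10 for Zc3h12a (-1.14 to 0.94). In spleen they were -0.39 (-1.16 to 0.38), 0.04 (-0.85 to 0.94), 0.36 (-0.55 to 1.28) and -0.14 (-1.18 to 0.90) in the same order. Of all tested genes 0.0% were called in islet and 0.0% in spleen by limma, with 475 and 525 genes at an unadjusted p under 0.05. In the authors' deposited table for islet Y16A against islet WT, Zfp36 had 86.8 against 73.1 FPKM (q 0.766), Zfp36l1 92.5 against 98.7 FPKM (q 0.905) and Zfp36l2 83.8 against 81.1 FPKM (q 0.955). That table is on another scale, with a median of 3.54 times the matrix means over 4192 transcripts. It has 0 entries for each of Zc3h12a, Rc3h1 and Rc3h2.

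Zc3h12a had 1.02, 1.27 and 0.894 FPKM in islet WT 1 to 3 and 0.885, 1.16 and 1.92 FPKM in islet Y16A 1 to 3. In spleen it had 0.166, 2.00 and 0.973 FPKM in WT 1 to 3 and 1.98, 0.847 and 0.0876 FPKM in Y16A 1 to 3. The spleen values enclosed the islet values, and the gene passed the filter through 4 islet and 2 spleen libraries. Rc3h1 ran from 0.204 to 1.12 FPKM in islet and from 0.0642 to 0.750 FPKM in spleen. Rc3h2 ran from 0.0730 to 0.803 FPKM in islet and from 0.159 to 1.07 FPKM in spleen. These 3 genes had 2 to 81 estimated fragments per library. In the fit with no filter on low values, over both origins, limma called neither Roquin: the log2 change was -0.03 for Rc3h1 (95% confidence interval -0.56 to 0.49) and -0.31 for Rc3h2 (-0.86 to 0.24).

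The islet libraries of Y16A (72.9 to 110.7 FPKM) and WT origin (52.2 to 96.0 FPKM) overlapped in the summed level of the 3 relatives. These sums do not have the median change subtracted, which was 0.26 for Y16A against WT in islet. In both origins the summed level was higher in islet than in spleen. It was 73.9 ± 21.9 FPKM in islet WT, 90.4 ± 19.1 in islet Y16A, 32.7 ± 10.1 in spleen WT and 32.4 ± 4.01 in spleen Y16A (SD, n = 3). Zfp36 made up 32.3% ± 3.20 of it in islet WT, 35.3% ± 8.40 in islet Y16A, 44.9% ± 2.80 in spleen WT and 34.8% ± 2.50 in spleen Y16A (SD, n = 3). The share of Zfp36l1 averaged 31.9% to 38.1% and that of Zfp36l2 23.2% to 31.5% over the groups.

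Of the general decay machinery, 1 gene was called. Over all tested genes 1.88% were called higher over both origins, so lists of 19 with 0 or 1 call do not stand apart from other genes. In islet against spleen over both origins limma called 0 of 19 tested AU-rich element binding proteins and other regulators, 0 of 19 decapping genes and 0 of 19 exosome and nonsense-mediated decay genes. Their median log2 changes were -0.15, -0.26 and -0.08, beside -0.08 over all tested genes. Among 19 deadenylation genes, with a median of 0.00, only Btg2 was called, an antiproliferative protein that binds the CCR4-NOT deadenylase and is also on the list of immediate early and heat shock genes below. With the replicate block of the recipient mouse 2 deadenylation genes were called, and with T cell scaling 0. Btg2 averaged 65.9 ± 31.1 FPKM in islet and 26.9 ± 7.56 FPKM in spleen (SD, n = 6), a log2 change of 0.89 (limma adjusted p 0.0497), and it lost the call in 10 of 12 fits that left out a library. The authors' deposited table gave Btg2 283.3 FPKM in islet Y16A against 164.6 FPKM in islet WT (q 0.0485). For that comparison limma gave an adjusted p of 0.966.

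None of the 6 named partners was called, where 1.88% of all tested genes were called higher. The lack of a call among 6 genes does not set them apart. Dusp1, which was fixed beside them, is counted here as a target and was called over both origins (log2 change 6.29, limma adjusted p 1.91e-10). Arid5a, which protects mRNAs from Zc3h12a, averaged 11.8 ± 3.12 FPKM in islet and 6.31 ± 2.64 FPKM in spleen (SD, n = 6, log2 change 0.60, limma adjusted p 0.235). Mapkapk2 averaged 14.3 ± 6.10 and 9.58 ± 4.33 FPKM (adjusted p 0.565), and Malt1 averaged 2.07 ± 1.37 and 0.858 ± 0.580 FPKM (adjusted p 0.481). Nufip2, a Roquin cofactor, averaged 1.87 ± 0.695 and 1.23 ± 0.359 FPKM (adjusted p 0.708). Cnot1, the scaffold of the deadenylase, averaged 2.08 ± 1.05 and 1.96 ± 1.15 FPKM (adjusted p 0.955), and Upf1, the helicase that Zc3h12a uses, averaged 4.03 ± 2.64 and 4.82 ± 2.89 FPKM (adjusted p 0.939).

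Several mRNAs that the regulators are known to destabilise were higher in islet together with the Zfp36 family. Of 15 tested targets of the Zfp36 family 8 were called higher and 0 lower over both origins, with a median log2 change of 1.65. Of 16 tested targets of Zc3h12a and the Roquins 7 were called higher and 0 lower, with a median of 0.93. That list includes Zc3h12a itself (-0.03, not called). The counts were 6 to 9 and 5 to 7 when 1 library was left out. Over all tested genes 1.88% were called higher and the median was -0.08. Within WT origin 4 and 2 were called, and within Y16A origin 6 and 4. Ifng, Il2 and Nfkbid, all called, are on both lists. Of the named targets, Il2, Dusp1 and Rel reached 1 FPKM in 8, 7 and 5 libraries and passed the filter only through islet. The counts thus hold genes admitted through the tissue where they were high.

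Ifng, the type 1 helper cytokine, ran from 120.0 to 303.0 FPKM in islet (median 149) and from 3.84 to 13.6 FPKM in spleen, a log2 change of 3.95 (SE 0.31, limma adjusted p 4.95e-08). Il2, the T cell growth factor, had 1.53, 6.03 and 2.30 FPKM in islet WT 1 to 3 and 4.97, 9.13 and 4.07 FPKM in islet Y16A 1 to 3. It was listed at 0 in spleen WT 1 to 3 and spleen Y16A 1, and had 1.17 and 2.06 FPKM in spleen Y16A 2 and 3 (limma adjusted p 0.00787). Both cytokines held their calls over both origins in all 12 fits that left out a library. Tnf, the classic target of Zfp36 with the densest AU-rich sequence above, averaged 17.5 ± 8.87 FPKM in islet and 8.54 ± 5.94 FPKM in spleen (SD, n = 6). Its tissues overlapped and it was not called (log2 change 0.85, SE 0.48, limma adjusted p 0.327). The chemokine Ccl4 averaged 308.5 ± 115.1 FPKM in islet and 45.0 ± 23.7 FPKM in spleen (SD, n = 6, log2 change 2.65, limma adjusted p 0.000107).

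The surface receptors differed among themselves. Ctla4, an inhibitory receptor, averaged 60.0 ± 29.1 FPKM in islet and 5.48 ± 2.12 FPKM in spleen (SD, n = 6, log2 change 2.91, limma adjusted p 7.54e-07). Tnfrsf4 (OX40), a costimulatory receptor, averaged 176 ± 39.7 FPKM in islet and 67.4 ± 10.4 FPKM in spleen (log2 change 1.11, limma adjusted p 0.000159). For both, every islet library stood above every spleen library. Icos, the best known Roquin target, averaged 44.4 ± 12.1 and 26.6 ± 9.85 FPKM, overlapped between tissues and was not called (log2 change 0.52, limma adjusted p 0.249).

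The NF-kappa B genes among the targets rose in part. Nfkbiz averaged 11.2 ± 2.71 FPKM in islet and 2.89 ± 1.66 FPKM in spleen (SD, n = 6, log2 change 1.49, limma adjusted p 0.00807). Nfkbid averaged 32.4 ± 16.2 and 10.9 ± 3.41 FPKM (log2 change 1.12, limma adjusted p 0.0264) and lost its call in 6 of 12 fits that left out a library. The subunit Rel ran from 0.394 to 5.41 FPKM in islet and from 0 to 0.785 FPKM in spleen and was not called (limma adjusted p 0.0854). By the origin of the cells, none of these targets was called by limma. In the authors' deposited table Ctla4 (q 0.0126) and Fos (q 0.00701) were higher, and Ccl4 (q 0.00701) was lower, in islet Y16A than in islet WT, while limma gave each an adjusted p of 0.966.

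**Figure D4:**
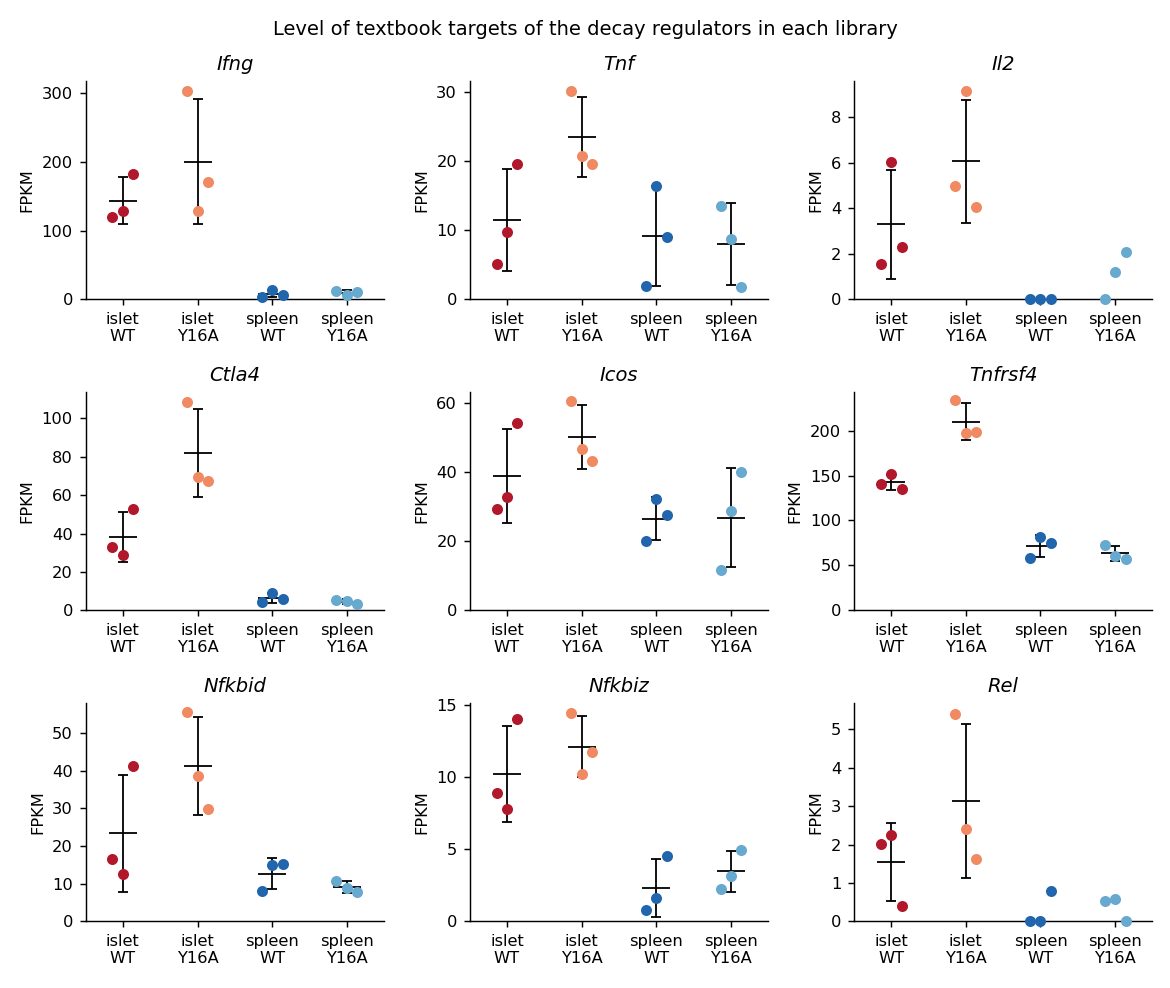
FPKM of 9 known targets of the decay regulators in every library (points), with mean and SD of the 3 libraries of a group (black, left out where a library is listed at 0). Ifng, Ctla4, Tnfrsf4 and Nfkbiz show islet libraries wholly above spleen libraries, while Tnf, Il2, Icos, Nfkbid and Rel overlap between tissues.

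Genes that are induced rapidly by activation or stress had the highest share of calls among the 7 pathway lists. Of the 20 listed immediate early genes and heat shock genes, 15 were called higher in islet over both origins and 0 lower, with a median log2 change of 1.32, and 13 to 17 when 1 library was left out. Over all tested genes 1.88% were called higher. Fos, a subunit of AP-1, ran from 83.9 to 287.6 FPKM in islet and from 0.116 to 2.07 FPKM in spleen (log2 change 6.15, limma adjusted p 1.01e-10). Dusp1, a phosphatase that ends p38 signalling, ran from 71.5 to 182.7 FPKM in islet and was listed at 0 in 4 of 6 spleen libraries, with 0.452 and 1.78 FPKM in the others. The heat shock genes Hspa1a (islet 78.5 to 300.0 FPKM, spleen 0.104 to 1.83 FPKM) and Hspa1b moved likewise, and these near-identical copies can share reads. Dusp1, Hspa1a and Hspa1b each reached 1 FPKM in 7 libraries and passed the filter only through islet. Fos and Dusp1 are also on the list of Zfp36 family targets. The part of this list's change in that of the Zfp36 family was not tested.

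**Figure D5:**
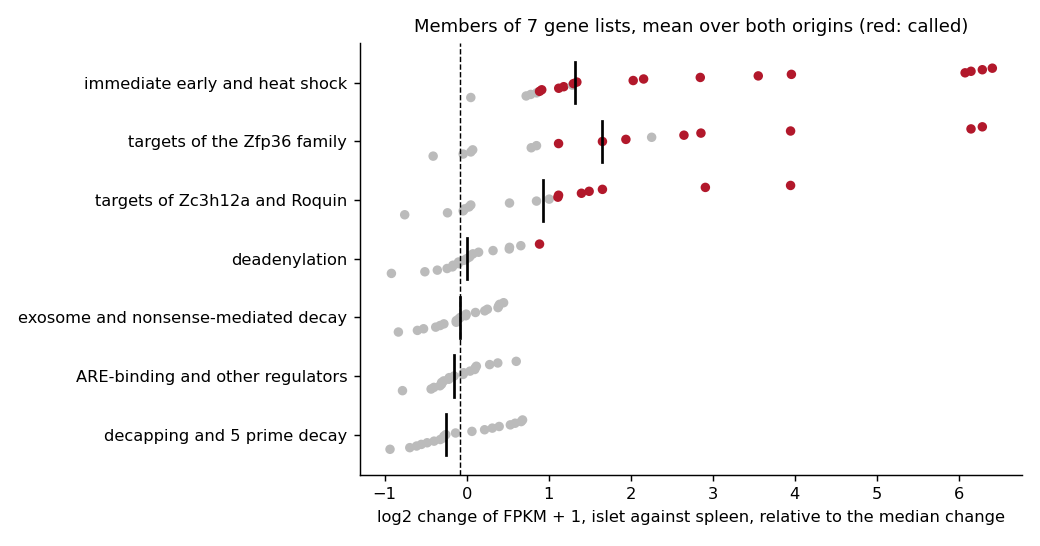
Log2 change of FPKM + 1, islet against spleen over both origins, for each tested gene of 7 lists, relative to the median change. Red points are called genes, black bars are list medians and the dashed line is the median of all tested genes (-0.08). The upper 3 lists, with medians of 1.32, 1.65 and 0.93, hold 15, 8 and 7 called genes, where 1.88% of all tested genes were called higher.

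Across the 12 libraries, the genes whose log2 levels followed each of the 4 tested members most closely were ranked among genes with a mean of at least 5 FPKM, 4222 for the Zfp36 family and 4223 for Zc3h12a. For Zfp36 they were Junb (r = 0.941), Hsp90aa1 (0.938) and Ctla4 (0.937). For Zfp36l1 they were Rplp2-ps1 (r = 0.952), which may share reads with its parent gene, Dad1 (0.950) and Fth1 (0.943). For Zfp36l2 they were Cxcr6 (r = 0.940), Dusp5 (0.933) and Ctsw (0.931). Each of these genes had its highest library in islet, and the points share tissue, mouse and library total. The family members correlated with each other at r = 0.867 (Zfp36 with Zfp36l1), 0.830 (Zfp36 with Zfp36l2) and 0.832 (Zfp36l1 with Zfp36l2). Many other genes followed them more closely: Zfp36l1 ranked 61 and Zfp36l2 ranked 129 for Zfp36, and Zfp36l2 ranked 167 for Zfp36l1. Zc3h12a followed Psmg3 (r = 0.820), H2aw (0.819) and Anapc15 (0.804), at its few fragments per library, and these are descriptions with no test.

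Other cells' transcripts also differed between the tissues. In these bulk libraries, fewer cells of a type and less RNA per cell cannot be told apart. All 15 acinar markers were called higher in islet over both origins, where 1.88% of all tested genes were. Their summed level was 1132 to 4429 FPKM in islet and 2.16 to 7.90 FPKM in spleen. The 8 endocrine markers summed to 26.1 to 1081 FPKM in islet WT, 0.396 to 53.9 FPKM in islet Y16A and at most 8.82 FPKM in spleen. The 7 neutrophil markers summed to 0 to 4.31 FPKM in islet and 95.0 to 240.2 FPKM in spleen, with S100a9 and Camp listed at 0 in all 6 islet libraries. Erythroid and platelet markers summed to 5.13 to 124.1 FPKM in islet and 125.8 to 2378 FPKM in spleen. The 12 macrophage and monocyte markers summed to 45.0 to 194.7 FPKM in islet and 176 to 656.3 FPKM in spleen. The part of these cells in the change of the Zfp36 family was not tested. B cell, dendritic, endothelial and stromal markers summed to at most 27.6 FPKM in every library. Natural killer and CD8 markers summed to 23.8 to 92.1 FPKM in islet and 13.2 to 59.3 FPKM in spleen.

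The summed T cell level was also higher in islet, and 1 of 7 T cell markers, Cd3g, was called (log2 change 0.44, limma adjusted p 0.0493), where 1.88% of all tested genes were called higher. With every library scaled to these markers, an alternative chosen after the data were seen, the log2 changes were 0.77 for Zfp36 (adjusted p 0.114), 1.14 for Zfp36l1 (adjusted p 0.0263) and 1.12 for Zfp36l2 (adjusted p 0.0333). Subtracting the median change largely cancels such a scaling, so these sizes cannot show whether the change withstands it. The median change subtracted was -0.07 after the scaling, beside 0.25 in the main fit, and the p-values belong to the changes before subtraction. Over all tested genes limma called 190 higher and 43 lower in islet over both origins, but 129 and 105 after that scaling and 145 and 101 after quantile normalisation. Within WT origin the main counts were 64 and 18, against 69 and 38 after quantile normalisation. Within Y16A origin they were 98 and 20, against 72 and 54 after T cell scaling.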

How the data were processed

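RNA from 12 libraries of transferred CD4 T cells was measured after Triton X-100 lysis, reverse transcription, amplification and Nextera XT preparation, per the labels' protocols. The authors used TopHat 1.0.0 and Cufflinks with mm9, per the submitters' processing notes, and the deposited matrix gives FPKM per transcript. The authors' deposited table compares the islet groups by origin with FPKM, a p-value and a q-value per transcript. Its positions are on GRCm38 although the notes name mm9. Of 36285 matrix entries, 99.71% matched a symbol, and FPKM were summed to 24383 genes.

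Tested genes were fitted as log2(FPKM + 1), pseudocount 1, with limma 3.58.1 under R 4.3.3 (block fitted with statmod 1.5.0). The model had a mean for each of the 4 groups and 8 residual degrees of freedom, and empirical Bayes used the trend and robust options. Tissues were compared in each origin and over both origins, origins were compared in each tissue, and the interaction was tested. Nothing in the labels says that the libraries of a group came from separately expanded cultures, so p-values measure only the spread between recipients.

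The titles name the recipient mouse of each islet and spleen library, so the mouse pairs them. Deviations of paired libraries from their group means correlated at 0.0065 to 0.0873 across genes. With the recipient mouse as a block, the consensus correlation was 0.0935.

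The members, lists and tests were chosen with earlier results of these data known. Genes were named by rule: all 6 members, 16 fixed partners and targets, and up to 4 called genes with the smallest p of each list. Genes of likeness were the 3 with the highest r per member. The sentence on cell type markers names further genes chosen after their values were seen. The lists were AU-rich element binding and other regulators, deadenylation, decapping, exosome and nonsense-mediated decay, targets of the Zfp36 family, targets of Zc3h12a and the Roquins, and immediate early and heat shock genes. Sequences are from RefSeq (GRCm38.p6) and GENCODE M21.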

Additional observations from a re-analysis of the deposited data

How the results depend on the processing

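Pseudocounts of 0.1 and 5, no filter, a filter at a mean of 5 FPKM, quantile normalisation, median centring, variance without trend or robust estimation, the replicate block, the highest transcript per gene, only the compared groups, and leaving out each library were tried. Fitting only the compared groups does not apply to the interaction or to the mean over both origins. The 3 Zfp36 family genes kept a higher level in islet in all of these fits. Over both origins, Zfp36 was not called with no filter (0.77, adjusted p 0.0807), without trend or robust variance (0.77, 0.0729), with the highest transcript (0.75, 0.0593) and with T cell scaling (0.77, 0.114). Leaving out a library gave 0.70 to 0.85. Zfp36l1 was not called with no filter (1.14, 0.0523) and ran from 1.01 to 1.24 without a library. Zfp36l2 was not called with no filter (1.12, 0.0637) and ran from 1.01 to 1.22 without a library. The cause of these losses was not tested. The sign of Zc3h12a over both origins varied (-0.22 to 0.42), and it was never called.

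The count of called genes over both origins was 233, but 140 with no filter and 151 with the highest transcript. For Y16A against WT origin, the count of 0 in islet became 1 with a pseudocount of 0.1 and 1 with only the compared groups, and 0 to 1 without a library. In spleen it became 1 with a pseudocount of 0.1, 1 with quantile normalisation and 5 with the highest transcript, and 0 to 1 without a library. The interaction gave 0 to 1 without a library. With the replicate block of the recipient mouse the counts were 99 (WT), 136 (Y16A) and 282 (both), the adjusted p over both origins was 0.0286 for Zfp36, 0.0092 for Zfp36l1 and 0.0137 for Zfp36l2, and no member's call changed. Zc3h12a, Rc3h1 and Rc3h2 rest on medians of 17 to 46 estimated fragments per library, and the part of depth in their lack of calls was not tested.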
